A study of Homo sapiens with 21 samples.

Results

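The change between 240 and 480 min of epidermal growth factor (EGF) was measured in MCF10A, an immortalised, non-tumorigenic line of human mammary epithelial cells. All 3 arrays of the 480 min group were set against all 3 arrays of the 240 min group, so the comparison used 6 of the 21 arrays in the series, and the other 15 arrays (0, 20, 40, 60 and 120 min, 3 each) supplied earlier levels and part of the estimate of spread. Per the labels, every culture first went 24 h without EGF and then 24 h in medium with 1% horse serum, and both groups then received the same single dose of EGF, 20 ng/ml. Replicates were separate cultures of low-passage cells, and each group therefore differed from the other by 240 min of further exposure. No arrays of cells kept without EGF to 240 or 480 min were used, so an effect of EGF, of handling and of time in culture cannot be told apart. RNA was total RNA depleted of ribosomal RNA and was hybridised to an Affymetrix array, and the intensity of each probeset (a small group of probes) was the deposited value.

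Starved epithelial cells that receive EGF switch on the ERK cascade, which first induces immediate early transcription factors and their feedback inhibitors and later induces secreted proteases and cytokines. Cells that pass the restriction point in late G1 phase release E2F transcription factors from the RB family. The E2F factors then drive cyclin E, the proteins that load helicases at replication origins, and the polymerases and clamp of the replication fork, before DNA synthesis starts in S phase.

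Levels are given as log2(intensity + 16), each gene being the median of its probesets, so a change is a difference on that scale and understates the change of dim genes. A gene was called when its limma test of 480 against 240 min passed a Benjamini-Hochberg adjusted p of 0.05 over all 16614 genes, and a value after ± is limma's standard error of the change between 3 and 3 arrays. The 6 arrays had medians of 20.53 to 20.56 intensity units, and their gene values correlated at 0.981 to 0.987 within 240 min, at 0.96 to 0.988 within 480 min and at 0.957 to 0.976 between the times. An array index was taken as the log2 distance between the medians of named and unnamed probesets, and ran from 1.255 to 1.328 at 240 min and from 1.238 to 1.358 at 480 min. Replicate 2 at 480 min had the lowest index of the 6 arrays. Of the 19 basal and squamous markers measured, all lay above the median gene, and their summed intensity was 29990 to 32590 at 240 min and 29160 to 32120 at 480 min. Summed intensities of 9 leukocyte and endothelial markers were 485.8 to 489.8 and 475 to 527.6, and those of 11 fibroblast markers were 716.2 to 776.5 and 769 to 810.6. In limma 0 of the fibroblast, leukocyte and endothelial markers were called, and 0 passed an unadjusted p of 0.05.

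Between 240 and 480 min 245 genes were called, 1.47% of those tested, of which 130 (0.782%) were higher at 480 min and 115 (0.692%) were lower. The higher genes were led by the collagenase gene MMP1, the stromelysin gene MMP10, and the replication genes DTL, CCNE2 and CDC6. The lower genes were led by the cross-linking enzyme gene TGM1, the growth factor carrier gene IGFBP3, PLAC8, the plasminogen activator gene PLAT and the keratin gene KRT15. The median change was 0.61 among the called rises and -0.63 among the called falls, and 12 rises and 13 falls were of at least 1 on the log2 scale. Most probesets of the gene moved in the direction of the call in 130 of 130 higher and 114 of 115 lower genes, and every probeset did so in 61 and 44. Over all genes the change had a median of 0.02. At an unadjusted p of 0.05 in limma, 1793 of the 16614 genes passed, 1008 higher and 785 lower. With any 1 of the 6 arrays left out the number called fell, to 138, 127 and 133 without replicate 1, 2 or 3 at 240 min and to 136, 186 and 127 without replicate 1, 2 or 3 at 480 min. Of the called genes, 50 higher and 45 lower ones passed in all 6 of these refits.

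**Figure D1:**
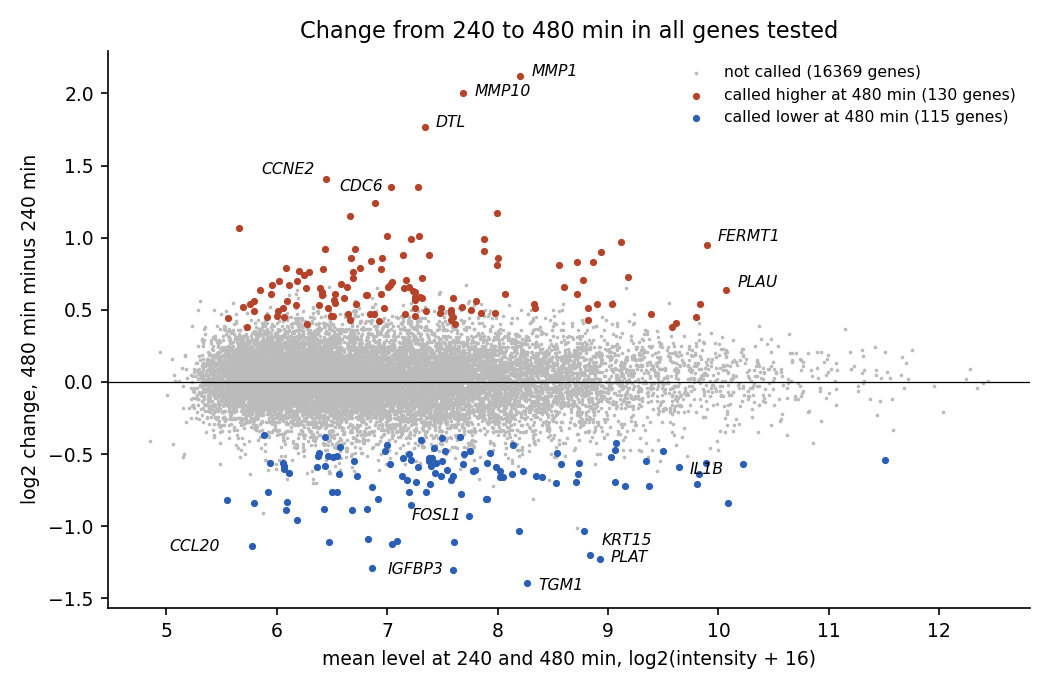
Log2 change from 240 to 480 min (vertical axis) against the mean level of the gene at both times in log2(intensity + 16) (horizontal axis) for 16614 genes, each point 1 gene. Of the 130 genes called higher (red), MMP1 and MMP10 stand highest at 2.12 and 2.0, and of the 115 called lower (blue), TGM1 stands lowest at -1.39.

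Genes of DNA replication were called in 1 direction, higher at 480 min. Of 81 measured members of 3 lists (G1 cyclins, kinases and E2F factors; origin licensing and firing; replication fork and polymerases), 15 were called higher and 0 lower, that is 18.5% against 0.782% of all genes. At an unadjusted p of 0.05 in limma, 37 were higher and 0 lower, where 1008 and 785 of all 16614 genes were. The median change was 0.25 over the 81 genes, and 67 lay above 0, where 55.3% of all genes did. The lists and their members were chosen with earlier results of these data known. The number called higher was 7, 12 and 8 without replicate 1, 2 or 3 at 240 min and 9, 13 and 7 without replicate 1, 2 or 3 at 480 min. CCNE2, E2F7, CDC6, MCM10, ORC1, UHRF1 and PRIM1 passed in all 6 refits.

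Among the regulators of late G1, CCNE2, 1 of the genes for cyclin E, the partner of CDK2, rose most. Its levels were 5.73, 5.65 and 5.83 at 240 min and 7.29, 6.84 and 7.33 at 480 min. All 3 later arrays lay above all 3 earlier ones, and the change was 1.41 ± 0.17 (limma, adjusted p = 4.9e-05). E2F7, an E2F factor that represses transcription, measured 6.86, 6.76 and 6.84 and then 7.55, 7.48 and 7.55, a change of 0.71 ± 0.10 (limma, adjusted p = 0.00026). With dim probesets kept in the gene value its change was 0.33 and was not called (limma, adjusted p = 0.31). CDC25A, the phosphatase that activates CDK2, changed by 0.47 ± 0.11 (limma, adjusted p = 0.023), without an overlap between the times, and lost its call without any 1 of the 6 arrays (limma, adjusted p from 0.058 to 0.12). The other regulators CCNE1, CCND1 and E2F1 were not called, and differed by 0.39 ± 0.15, 0.36 ± 0.11 and 0.27 ± 0.10 (CCND1 encodes a D-type cyclin). E2F1 measured 6.61, 6.52 and 6.39 against 6.66, 6.85 and 6.80, which do not overlap. The arrays did not overlap in 11% of all genes with the later ones higher and in 9.35% with the later ones lower. Over the 23 measured genes of this list the median change was 0.10, and 3 were called.

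Origin licensing, the loading of the MCM helicase onto origins by ORC, CDC6 and CDT1, had 4 of 28 genes called higher, with a median change of 0.25 and 24 genes above 0. CDC6 measured 6.22, 6.47 and 6.39 at 240 min and 7.83, 7.35 and 7.97 at 480 min. Replicate 2 was the lowest of the later arrays for CDC6, as it was for CCNE2, and still lay above every array of 240 min. The change was 1.35 ± 0.17 (limma, adjusted p = 7.1e-05). ORC1, the largest subunit of the origin recognition complex, rose from 5.77, 5.58 and 5.71 to 6.53, 6.41 and 6.48 (0.79 ± 0.13, limma, adjusted p = 0.002), although with a stricter filter on dim probesets its change was 0.30 (limma, adjusted p = 0.20). MCM10, which helps to activate the loaded helicase, rose by 0.76 ± 0.12 (limma, adjusted p = 0.00075), with 24 of its 24 probesets higher. Of the MCM helicase subunits, MCM5 was called (0.47 ± 0.12, limma, adjusted p = 0.041) and MCM3 was not (0.39 ± 0.11, limma, adjusted p = 0.10), so the 2 lay on either side of the threshold with similar changes. The other subunits were not called, MCM6 differing by 0.39 ± 0.16, MCM4 by 0.23 ± 0.13, MCM2 by 0.01 ± 0.14 and MCM7 by -0.02 ± 0.13. The call of MCM5 was lost without any 1 of the 6 arrays (limma, adjusted p from 0.089 to 0.17).

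The list of replication fork genes had 8 of 30 members called higher, a median change of 0.35, and 28 genes above 0. Of the subunits of primase and polymerase alpha, PRIM1, the catalytic primase subunit, changed by 0.92 ± 0.15 and POLA2, the B subunit of polymerase alpha, by 0.66 ± 0.13. Their partners PRIM2, at 0.29 ± 0.21, and POLA1, at 0.28 ± 0.12, were not called (limma, adjusted p = 0.71 and 0.40). PRIM1 measured 6.40, 6.33 and 6.03 at 240 min against 6.98, 7.49 and 7.04 at 480 min (limma, adjusted p = 0.0014). POLA2 measured 6.53, 6.70 and 6.80 against 7.35, 7.16 and 7.5 (limma, adjusted p = 0.009). UHRF1, which guides the methylation of newly made DNA, measured 6.75, 6.73 and 6.63 against 7.31, 7.77 and 7.67, a change of 0.88 ± 0.11 (limma, adjusted p = 0.00014). Its partner DNMT1, the maintenance methyltransferase, moved less, by 0.40 ± 0.09 (limma, adjusted p = 0.023). PCNA, the sliding clamp, rose from 7.55, 7.56 and 7.73 to 8.20, 7.96 and 8.12 (0.48 ± 0.12, limma, adjusted p = 0.047), close to the threshold. The clamp loader subunit gene RFC3 rose by 0.66 ± 0.14, the polymerase delta subunit gene POLD3 by 0.47 ± 0.11 and the histone chaperone gene CHAF1A by 0.51 ± 0.11. The flap endonuclease gene FEN1, with a change of 0.44 ± 0.11, was just outside (limma, adjusted p = 0.058). The count of 8 fell to 2 and 3 without replicate 1 or 3 at 240 min, to 4 and 2 without replicate 1 or 3 at 480 min, and to 4 when the 6 arrays were fitted alone.

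DTL, whose product directs a ubiquitin ligase to CDT1 and p21 on DNA-bound PCNA, stood outside the lists and had the largest change after MMP1 and MMP10. Its levels were 6.41, 6.54 and 6.42 at 240 min and 8.47, 7.89 and 8.32 at 480 min, and 17 of 17 probesets were higher. The change was 1.77 ± 0.19, or 3.41-fold (limma, adjusted p = 9.1e-06). FAM111B, a protease gene outside the lists, measured 5.92, 6.17 and 6.17 against 7.22, 7.17 and 7.31, and changed by 1.15 ± 0.16 (limma, adjusted p = 0.00033).

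**Figure D2:**
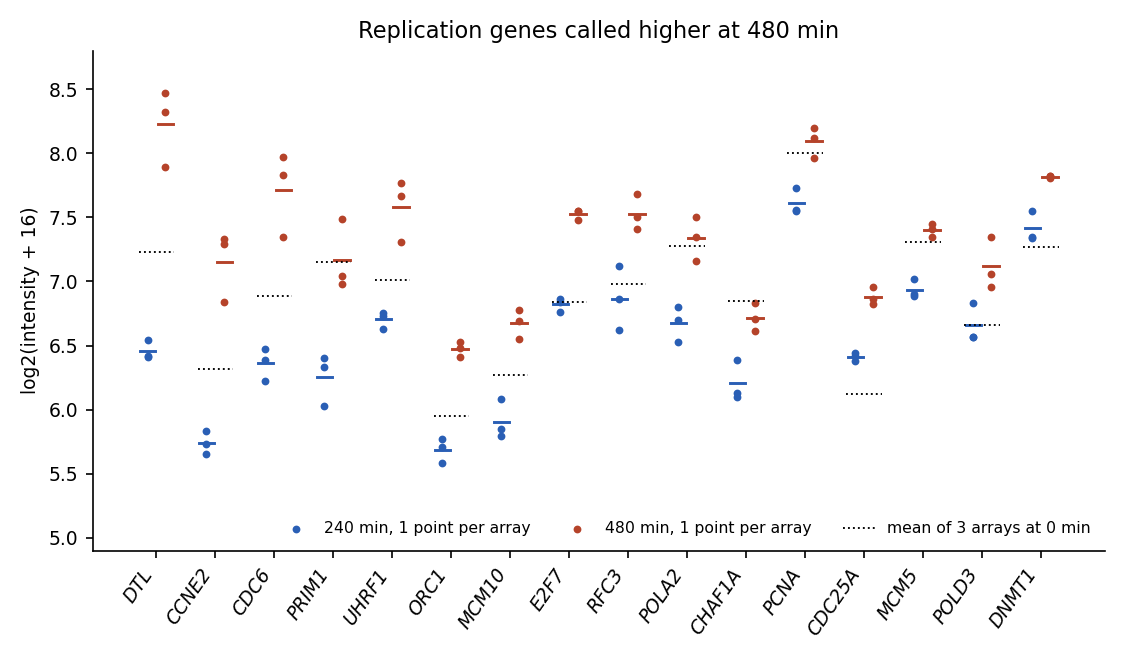
Levels in log2(intensity + 16) (vertical axis) of DTL and the 15 replication genes called higher, with 1 point per array at 240 min (blue) and 480 min (red), a bar for the mean of 3, and a dotted line for the mean at 0 min. The red points lie above the blue ones in every gene, and the dotted line lies below the blue bar in CDC25A and DNMT1, level with it in POLD3 and E2F7, and above it in the others.

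The mean at 240 min was the lowest of the 7 times in 12 of the 15 called replication genes, in 37 of the 81 measured (45.7%), in 48 of all 130 genes called higher (36.9%) and in 13.5% of all genes tested. A gene called higher at 480 than at 240 min is more likely to have its lowest level at 240 min by that choice alone. DTL averaged 7.23 at 0 min, between 7.32 and 7.75 from 20 to 120 min, 6.45 at 240 min and 8.23 at 480 min. CDC6 averaged 6.89 at 0 min, 6.36 at 240 min and 7.71 at 480 min, and PRIM1 averaged 7.15, 6.25 and 7.17. The comparisons of 240 and of 480 min with 0 min share arrays with the change described here and are given only as values. At 480 min DTL lay 1.00 ± 0.19 above its level at 0 min, CCNE2 0.83 ± 0.17, CDC6 0.83 ± 0.17, E2F7 0.69 ± 0.10 and UHRF1 0.57 ± 0.11. PRIM1, POLA2, MCM5 and PCNA lay within 0.03, 0.06, 0.09 and 0.10 of it, and had been 0.89, 0.60, 0.38 and 0.38 below it at 240 min (log2 differences of -0.89, -0.60, -0.38 and -0.38). For those 4 genes the later level was therefore close to that of the starved cells. The level of the fork list was the median over its genes in each array, each gene centred on its mean over the 21 arrays. Averaged over the arrays of a time, this level was -0.03 at 0 min, -0.17 at 240 min and 0.16 at 480 min. Array by array it was -0.281, -0.089 and -0.128 at 240 min and 0.199, 0.032 and 0.262 at 480 min, so replicate 2 at 480 min, the array with the lowest index, stood lowest among the later ones. With the index as a covariate, 21 members of the 3 lists were called higher. In bulk RNA a larger share of cells expressing a gene and more RNA per cell cannot be told apart.

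Genes of deoxynucleotide supply and of the later cell cycle phases held no called change, where 1.47% of all genes were called. At that share 0 calls in lists of this size do not set them apart from other genes. At an unadjusted p of 0.05 in limma, 1793 of all 16614 genes passed. The supply of deoxynucleotides, which includes RRM2, a subunit of ribonucleotide reductase, and thymidylate synthase, had 0 of 28 genes called by limma (2 at an unadjusted p of 0.05), with a median change of 0.06. RRM2 measured 8.08, 8.13 and 8.16 against 8.19, 8.04 and 8.33, a difference of 0.06 ± 0.19, and the arrays of the 2 times overlapped. Of 33 genes of G2 and M phase limma called 0 (1 at an unadjusted p of 0.05), and their median change was 0.01. The largest difference among them was that of AURKA, a mitotic kinase gene, at 0.41 ± 0.14 (limma, adjusted p = 0.19). Of 23 listed histone genes that are expressed with replication, 5 had enough single-gene probesets, and H2BC14 was called lower (-0.81 ± 0.12). Over the 5 genes the median change was -0.36, and 4 lay below 0, while 55.3% of all genes lay above 0. The later arrays were lower without overlap in 4, against 9.35% of all genes. These values are uncertain because the histone genes are near-identical copies. Of 18 CDK inhibitors and RB family genes LIN52, part of the complex that represses cell cycle genes in quiescence, was called higher (0.52 ± 0.11, limma, adjusted p = 0.015). It lost the call without replicate 1 or 2 at 240 min or replicate 2 or 3 at 480 min (limma, adjusted p from 0.066 to 0.11). The CDK inhibitor gene CDKN1A, which encodes p21, measured 8.63, 8.53 and 8.46 against 8.0, 8.31 and 8.06. The groups did not overlap, and the difference of -0.42 ± 0.11 missed the threshold (limma, adjusted p = 0.062).

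E2F factors bind promoters of S phase genes at short GC-rich sites, so the start-site windows of the genes were searched for 4 such strings, TTTCCCGC, TTTGGCGC, TTTCGCGC and TTTGCCGC, on both strands. Windows came from RefSeq (GRCh38.p14) and held 250 bases before and 50 after a start. At least 1 of the strings was in 3.31% of all 35116 windows, and 5.79% of the 13067 tested genes with a window had one. Of the genes called higher that had a window, 14 of 99 held a string (14.1%), against 1 of 87 called lower (1.15%). Among replication genes it was 7 of 12 called higher (58.3%) and 23 of 55 not called (41.8%), and among genes called higher outside those lists it was 7 of 87 (8.05%). These shares describe letters in a window and not binding. A gene was counted if any of its windows held a string. CHAF1A, E2F7, MCM10, ORC1 and PRIM1, all called higher, had a window and no string. For DTL, PCNA, POLA2 and RFC3, whose changes are given above, a window was picked because it held a string. These windows are shown upstream of the start with the string in capitals, to show its place and its 2 orientations.

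DTL (chr1:212035498-212035747, plus strand): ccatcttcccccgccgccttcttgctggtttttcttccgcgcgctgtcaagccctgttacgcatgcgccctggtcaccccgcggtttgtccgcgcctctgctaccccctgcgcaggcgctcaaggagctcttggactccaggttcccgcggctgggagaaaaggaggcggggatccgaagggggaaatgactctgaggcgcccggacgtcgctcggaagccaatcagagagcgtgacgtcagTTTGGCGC
PCNA (chr20:5126623-5126872, minus strand): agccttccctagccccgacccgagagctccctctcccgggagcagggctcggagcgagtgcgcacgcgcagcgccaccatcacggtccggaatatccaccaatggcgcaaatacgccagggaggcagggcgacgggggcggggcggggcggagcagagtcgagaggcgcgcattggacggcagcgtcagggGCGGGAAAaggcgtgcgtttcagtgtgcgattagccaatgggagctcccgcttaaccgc
POLA2 (chr11:65261712-65261961, plus strand): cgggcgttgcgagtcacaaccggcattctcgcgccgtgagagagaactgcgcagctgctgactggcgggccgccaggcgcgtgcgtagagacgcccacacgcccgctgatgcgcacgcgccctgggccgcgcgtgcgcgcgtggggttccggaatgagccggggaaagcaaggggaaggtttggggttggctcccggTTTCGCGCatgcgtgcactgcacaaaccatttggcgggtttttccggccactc
RFC3 (chr13:33817899-33818148, plus strand): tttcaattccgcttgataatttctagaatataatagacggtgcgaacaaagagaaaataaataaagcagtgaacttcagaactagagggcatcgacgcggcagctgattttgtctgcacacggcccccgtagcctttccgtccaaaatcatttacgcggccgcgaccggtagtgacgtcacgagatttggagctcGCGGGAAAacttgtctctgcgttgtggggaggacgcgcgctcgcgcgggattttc

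The string began 8 bases before the start in DTL, 59 in PCNA, 53 in POLA2 and 55 in RFC3. A second motif, the AP-1 site TGAGTCA of the FOS and JUN families, was searched on both strands in the same windows. It was in 4.95% of all windows, in 5.19% of tested genes with a window, in 10 of 99 genes called higher (10.1%), in 8 of 87 called lower (9.2%), and in 0 of 12 replication genes called higher.

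Genes of extracellular proteolysis and migration held the 2 largest rises and also large falls. Of 30 measured, 6 were called higher and 2 lower, 20% and 6.67% against 0.782% and 0.692% of all genes, with a median change of 0.06. MMP1, an interstitial collagenase, measured 7.09, 7.11 and 7.24 at 240 min and 9.20, 9.29 and 9.31 at 480 min. That is 4.35-fold (2.12 ± 0.13, limma, adjusted p = 2.5e-09), and 13 of 13 probesets were higher. MMP10, a stromelysin that also activates other matrix metalloproteases, measured 6.41, 6.66 and 6.99 and then 8.74, 8.47 and 8.85. Its change was 2.0 ± 0.14, or 4-fold (limma, adjusted p = 3.7e-08). MMP1 averaged 4.83 at 0 min, 5.00 at 60 min, 6.55 at 120 min, 7.14 at 240 min and 9.27 at 480 min, its highest level. The gelatinase gene MMP9 rose less, from 7.32, 7.46 and 7.49 to 7.83, 8.06 and 7.94 (0.52 ± 0.12, limma, adjusted p = 0.029), a call that was lost without any 1 of the 6 arrays (limma, adjusted p from 0.053 to 0.16).

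The 2 plasminogen activators diverged. PLAU, the urokinase-type activator, measured 9.75, 9.77 and 9.71 at 240 min and 10.29, 10.50 and 10.38 at 480 min, a change of 0.64 ± 0.10 (limma, adjusted p = 0.0014). PLAT, the tissue-type activator, measured 9.5, 9.64 and 9.49 and then 8.24, 8.37 and 8.33, so that it fell 2.34-fold (-1.23 ± 0.09, limma, adjusted p = 5.3e-08). Neither gene's arrays overlapped between the times. PLAT had risen to 9.67 at 120 min, and its 8.31 at 480 min was 0.14 ± 0.09 above its level at 0 min. The inhibitors of these enzymes diverged as well, SERPINE2 (protease nexin-1) rising by 0.97 ± 0.14 and SERPINB2 (plasminogen activator inhibitor 2) falling by 0.64 on the log2 scale, with an SE of 0.11 and an adjusted p of 0.0031 in limma. With dim probesets kept, SERPINE2 changed by 0.67 and was not called (limma, adjusted p = 0.066). FERMT1, a kindlin that activates integrins in epithelial cells, rose from 9.34, 9.45 and 9.46 to 10.32, 10.39 and 10.40. All 31 of its probesets were higher, and the change was 0.95 ± 0.11 (limma, adjusted p = 2.6e-05).

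**Figure D3:**
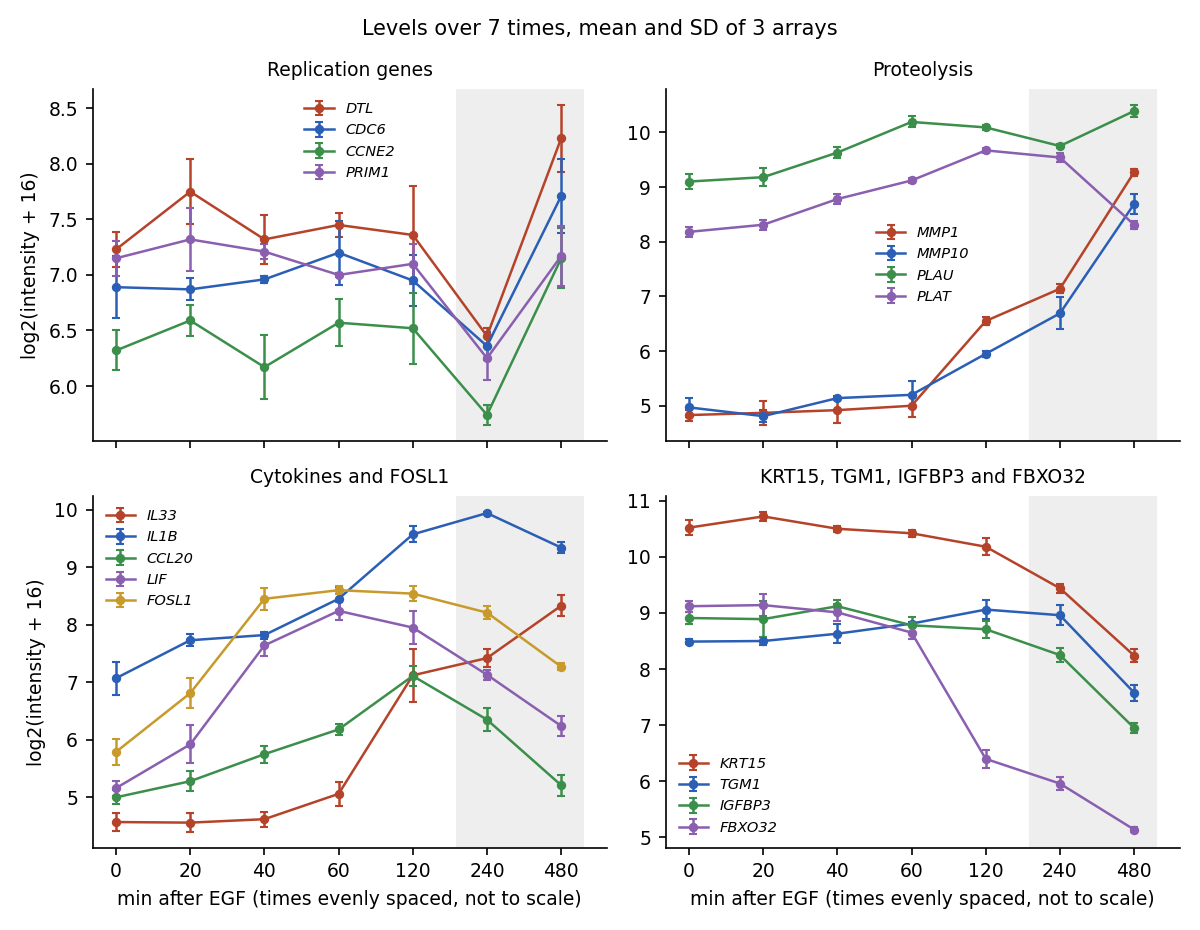
Mean level in log2(intensity + 16) with the SD of 3 arrays (vertical axes) at 0 to 480 min after EGF (horizontal axes, evenly spaced and not to scale), with the change from 240 to 480 min shaded. DTL, CDC6, CCNE2 and PRIM1 dip at 240 min and rise, MMP1 and MMP10 climb from 120 min on, PLAT, CCL20, LIF and FOSL1 turn down, and KRT15 and FBXO32 continue to fall.

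Chemokine, cytokine and NF-kB target genes changed in both directions, with 3 of 23 called higher and 5 lower and a median change of -0.06. These are 13% and 21.7%, against 0.782% and 0.692% of all genes. The number called higher was 1 with dim probesets kept and 1 with a stricter filter on them. CCL20, a chemokine for lymphocytes and dendritic cells, measured 6.18, 6.31 and 6.56 at 240 min and 5.01, 5.36 and 5.25 at 480 min. It fell by 1.14 on the log2 scale (SE 0.13, limma, adjusted p = 2.6e-05) and was 0.20 ± 0.13 above its level at 0 min. LIF, an interleukin 6 family cytokine, measured 7.04, 7.21 and 7.14 and then 6.45, 6.09 and 6.19, a change of -0.89 ± 0.16 (limma, adjusted p = 0.0032), from 3 probesets. IL1B fell from 9.93, 9.91 and 9.96 to 9.34, 9.25 and 9.44 (-0.59 ± 0.13, limma, adjusted p = 0.016) and remained 2.28 above its level at 0 min. IL36G, an interleukin 1 family cytokine of squamous epithelia, changed by -0.96 ± 0.23 and TNFAIP3, an inhibitor of NF-kB, by -0.48 ± 0.11.

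IL33, an alarmin stored in the nucleus, went the other way, from 7.23, 7.49 and 7.54 to 8.15, 8.35 and 8.50 (0.91 ± 0.17, limma, adjusted p = 0.0056). It had averaged 4.57 at 0 min and 7.12 at 120 min. With dim probesets kept its change was 0.52 and was not called (limma, adjusted p = 0.34). CSF3, the granulocyte colony-stimulating factor gene, measured 6.57, 6.29 and 6.21 and then 6.91, 7.32 and 7.23, a change of 0.79 ± 0.14 (limma, adjusted p = 0.0038), which with a stricter filter on dim probesets was 0.61 and not called (limma, adjusted p = 0.087). PTGS2, the inducible cyclooxygenase gene, had peaked at 9.24 at 60 min, stood at 6.06 at 240 min and was 0.65 ± 0.16 higher at 480 min (limma, adjusted p = 0.035). Its call was lost without any 1 array but replicate 2 at 240 min (limma, adjusted p from 0.071 to 0.18). The number called lower was 2 without replicate 1, 2 or 3 at 240 min or without replicate 1 or 2 at 480 min, and 4 without replicate 3 at 480 min. CCL20 and LIF passed in all 6 refits, as did IL33 and CSF3.

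Of 29 immediate early transcription factor genes limma called 0 higher and 1 lower (1 and 4 at an unadjusted p of 0.05), with a median change of -0.08. That gene was FOSL1, an AP-1 subunit, which measured 8.11, 8.33 and 8.18 at 240 min and 7.34, 7.23 and 7.26 at 480 min, without overlap. The change was -0.93 ± 0.14 (limma, adjusted p = 0.00055), and its level at 480 min was still 1.49 ± 0.14 above that at 0 min. EGR3, with -0.54 ± 0.18, and KLF10, with -0.43 ± 0.14, did not pass. Of 25 feedback regulators of ERK and the EGF receptor, LRIG3, a leucine-rich repeat membrane protein, was called higher (0.51 ± 0.13, limma, adjusted p = 0.045). It was lost without any 1 array but replicate 2 at 480 min (limma, adjusted p from 0.13 to 0.25). The ERK phosphatase gene DUSP6 measured 9.56, 9.70 and 9.78 against 9.96, 9.99 and 9.94, which do not overlap, and its difference of 0.29 ± 0.11 was not called. Among 15 EGF family ligands and receptors limma called 0 (3 at an unadjusted p of 0.05), and the furthest from 0 was the ligand gene EPGN at -1.01 ± 0.28 (limma, adjusted p = 0.082).

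Of 22 SRF and YAP target genes, some of which serve the actin cytoskeleton, 16 lay below 0, while 55.3% of all genes lay above 0. At an unadjusted p of 0.05 in limma, 6 were lower and 0 higher, where 785 and 1008 of all 16614 genes were. The focal adhesion gene VCL was called lower (-0.48 ± 0.11, limma, adjusted p = 0.033), a call lost without any 1 of the 6 arrays (limma, adjusted p from 0.069 to 0.19). BMP2, a TGF-beta family ligand, measured 8.08, 8.17 and 8.20 and then 8.89, 8.86 and 9.13. It was the called member of 17 ID and BMP pathway genes, with a change of 0.81 ± 0.12 (limma, adjusted p = 0.00057). Of 30 FOXO and quiescence genes limma called 3 lower and 0 higher (5 and 1 at an unadjusted p of 0.05), so that 10% were called lower against 0.692% of all genes. FBXO32, a ubiquitin ligase subunit gene that FOXO factors induce, fell from 5.84, 6.04 and 6.0 to 5.14, 5.09 and 5.18 (-0.82 ± 0.12, limma, adjusted p = 0.00039), at the end of a fall from 9.12 at 0 min. GADD45A, a growth arrest gene that stands in the p53 list too, changed by -0.66 ± 0.11 and the transcriptional co-regulator gene CITED2 by -0.53 ± 0.10. GADD45A was the called member of 20 p53 targets, where 0.692% of all genes were called lower. At an unadjusted p of 0.05 in limma, 7 of the 20 were lower and 0 higher. Of all 16614 genes 785 were lower and 1008 higher at that threshold.

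The basal and squamous marker list had 1 of 19 genes called in each direction, and TGM1, outside that list, had the largest called fall. TGM1, which cross-links the cornified envelope, measured 8.77, 9.0 and 9.12 at 240 min and 7.66, 7.66 and 7.41 at 480 min. It fell 2.61-fold (-1.39 ± 0.12, limma, adjusted p = 3.1e-07), to 0.91 below its level at 0 min (a difference of -0.91 ± 0.12). KRT15, a keratin of basal cells, measured 9.35, 9.46 and 9.5 and then 8.34, 8.11 and 8.26, and its change of -1.20 ± 0.10 (limma, adjusted p = 3.6e-07) followed earlier falls from 10.52 at 0 min. SPRR1A, a cornified envelope precursor, was the marker called higher (0.58 ± 0.15, limma, adjusted p = 0.048), but not without any 1 array other than replicate 3 at 240 min (limma, adjusted p from 0.11 to 0.28). Of 10 luminal markers MUC1, a membrane mucin, was called lower, from 8.55, 8.93 and 9.17 to 8.27, 8.18 and 8.11 (-0.70 ± 0.17, limma, adjusted p = 0.033). That call was lost without any 1 array but replicate 1 at 240 min (limma, adjusted p from 0.08 to 0.23).

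IGFBP3, which binds insulin-like growth factors, measured 8.12, 8.26 and 8.36 and then 6.99, 6.84 and 7.0, a change of -1.30 ± 0.13 (limma, adjusted p = 8e-06). Its 11 kept probesets were all lower, and with dim probesets kept too the change was -0.67 and was not called (limma, adjusted p = 0.096). PLAC8 fell by 1.29 on the log2 scale, the monoamine oxidase gene MAOA by 1.09, the thyroid hormone receptor gene THRB by 1.12, the microtubule protein gene MAP2 by 1.11 and the tetraspanin-like gene TM4SF1 by 1.03. THRB had gone up before it fell, from 6.94 at 120 min to 7.61 at 240 min and then to 6.48. The guanylate-binding protein genes GBP1 and GBP2 measured -1.11 ± 0.21 and -1.10 ± 0.25, while limma called 0 of 18 interferon response genes (3 at an unadjusted p of 0.05). RAET1L, a ligand of the receptor NKG2D, fell by 1.03, and its value is uncertain because the family holds near-identical copies. With dim probesets kept, RAET1L changed by -0.37 and PLAC8 by -0.66, and neither was called (limma, adjusted p = 0.56 and 0.052). GBP2 lost its call without replicate 2 or 3 at 240 min or replicate 1 or 2 at 480 min (limma, adjusted p from 0.09 to 0.16), and IL36G without any 1 array but replicate 3 at 480 min (limma, adjusted p from 0.095 to 0.18). In those 6 refits the other 13 of the 15 largest falls and all 15 of the largest rises stayed called.

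The other genes among the 15 largest rises stood outside the lists. CHRNA9, an acetylcholine receptor subunit gene, measured 6.52, 6.80 and 6.50 and then 8.08, 7.70 and 8.09 (1.35 ± 0.15, limma, adjusted p = 1.7e-05). SCG5, which encodes a chaperone of a prohormone convertase, rose by 1.24, the membrane protein gene FLRT2 by 1.17, and EVI2B by 1.07 from 3 probesets. With dim probesets kept, SCG5 changed by 0.39 and EVI2B by 0.40, and neither was called (limma, adjusted p = 0.21 and 0.22). The potassium channel gene KCNJ15 and the amino acid transporter gene SLC6A14 both rose by 1.01, and SLITRK6 and MRGPRX3 both by 0.99. FLRT2 had been called lower at 120 min (-0.88 against 0 min) and SLC6A14 higher (0.77).

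Few genes of the growth and housekeeping lists were called, as among all genes tested (1.47%). At that share 0 calls in a list of this size are not a result about its members. At an unadjusted p of 0.05 in limma, given in brackets for the lists, 1793 of all 16614 genes passed. Limma called 0 of 32 ribosome biogenesis genes (4 at an unadjusted p of 0.05), 0 of 24 translation genes (4), 0 of 27 ribosomal protein genes (3), 0 of 27 mitochondrial genes (1), 0 of 19 glycolysis genes (2), 0 of 18 amino acid supply genes (4), 0 of 26 proteasome genes (3), 0 of 15 chaperone genes (1) and 0 of 11 reference genes (0). The 25 cholesterol and fatty acid synthesis genes had 0 called by limma (9 at an unadjusted p of 0.05, each higher) and a median of 0.19, with 21 above 0 (55.3% of all genes lay above 0), and the one nearest the threshold was the desaturase gene FADS2 (0.37 ± 0.10, limma, adjusted p = 0.088). Secretory pathway genes lay above 0 in 21 of 23, with a median of 0.17, and DNAJC3, which encodes a co-chaperone of the endoplasmic reticulum, was called (0.61 ± 0.14, limma, adjusted p = 0.028). It was lost without replicate 1 or 2 at 240 min or replicate 1 or 3 at 480 min (limma, adjusted p from 0.097 to 0.17). Of 15 clock genes CIART, a repressor of the clock, was called lower (-0.56 ± 0.12, limma, adjusted p = 0.011). CIART lost the call without replicate 1 at 240 min or replicate 1 or 3 at 480 min (limma, adjusted p from 0.057 to 0.089), and with the stricter filter on dim probesets its change was -0.28 (limma, adjusted p = 0.42).

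**Figure D4:**
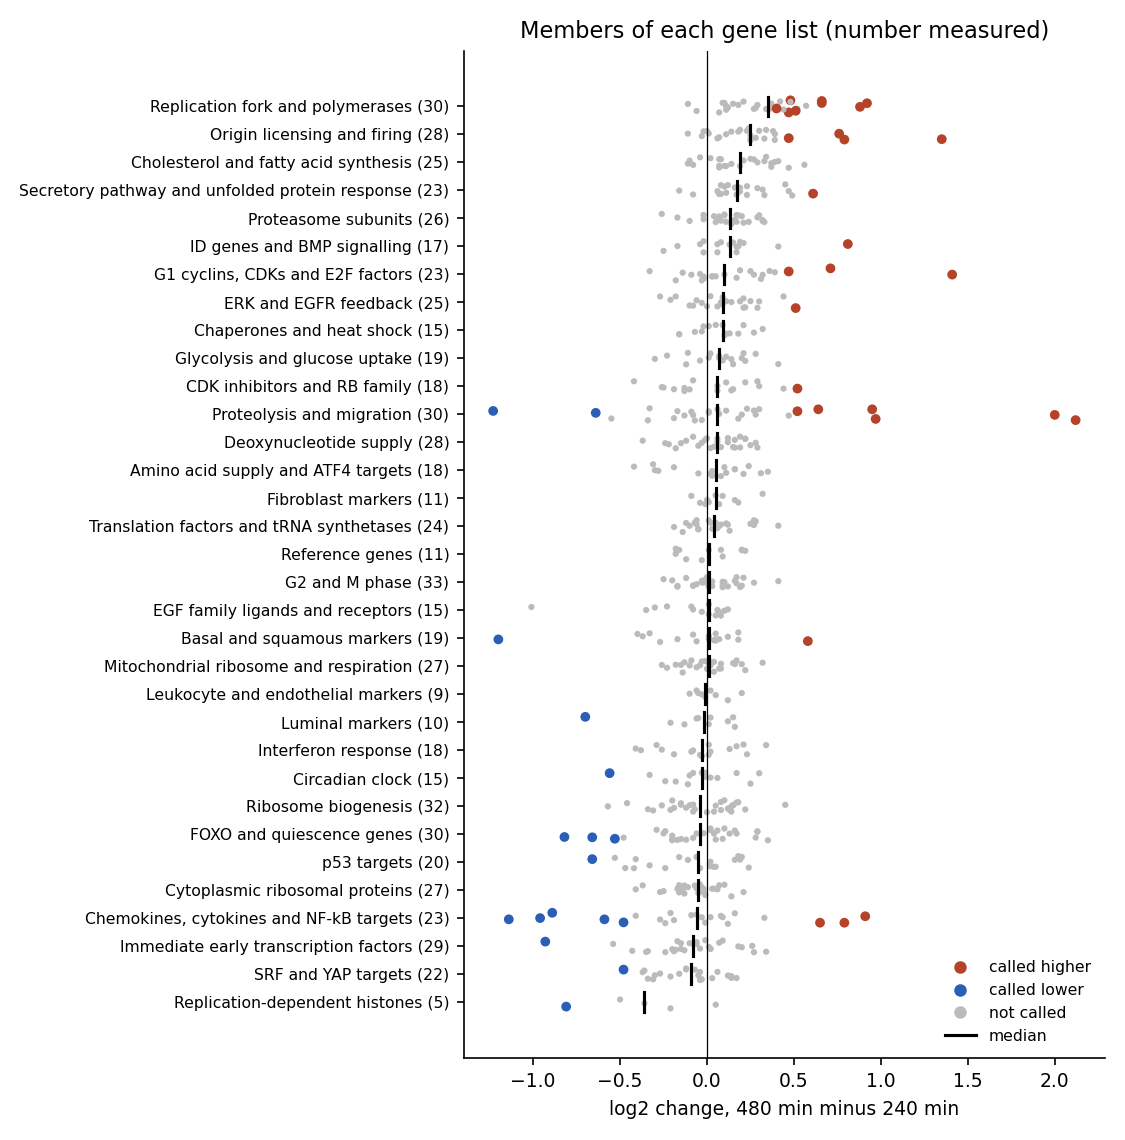
Log2 change from 240 to 480 min (horizontal axis) of the measured members of each gene list (vertical axis, number measured in brackets), each point 1 gene, red called higher, blue called lower, grey not called, with a black bar at the median. Red points gather in the fork and licensing lists, whose medians are 0.35 and 0.25, and both colours appear in the proteolysis and cytokine lists.

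Genes were also sorted by their call at 120 against 0 min, a comparison whose means share no array with this one. Both comparisons used the same estimate of each gene's spread. A gene with a small estimate is more likely to be called in both, so the 2 sets of calls are not independent. Of the 1862 genes higher at 120 min (11.2% of those tested), 58 were lower and 35 higher at 480 than at 240 min, 3.11% and 1.88%. The 533 genes lower at 120 min (3.21%) showed the opposite balance, with 16 higher (3%) and 4 lower (0.75%). Among the 14219 genes not called at 120 min, 79 were higher and 53 lower, 0.556% and 0.373%. The 100 genes with the largest rises at 120 min had 18 lower and 7 higher, with a median change of -0.12 against 0.02 over all genes. Genes that fell late after an early rise included CCL20, LIF, FOSL1, PLAT and IL1B, and those that rose further included MMP1, MMP10, IL33, FERMT1 and PLAU. Of the 15 replication genes called higher, CDC25A was the one already higher at 120 min (0.51, limma, adjusted p = 0.0019). Without replicate 3 at 120 min the number of genes called at 120 min was 1561 instead of 2395.

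**Figure D5:**
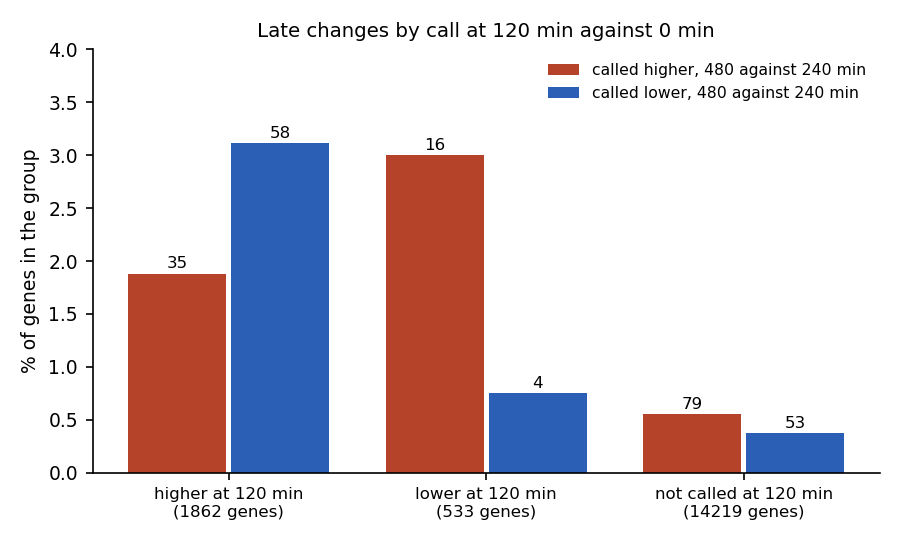
Share of genes (vertical axis, %) called higher (red) or lower (blue) at 480 against 240 min, for the genes called higher, lower or neither at 120 against 0 min (horizontal axis), with the number of genes above each bar. Falls outnumber rises, 58 to 35, among the genes higher at 120 min, and rises outnumber falls, 16 to 4, among those lower at 120 min.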

How the data were processed

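The table the authors deposited holds linear intensities of 1384231 probesets on 21 arrays of MCF10A cells. The submitters' processing notes name PLIER and version 1.1 of Affymetrix Expression Console, with settings not given in the sources used here. Array medians ran from 20.44 to 20.56, so values had been equalised before deposit, which removes any shift shared by all genes. The platform annotation gave 354600 probesets 1 symbol, 14898 several, and left 1014733 unnamed; of 19497 symbols, 2950 were updated through RefSeq (GRCh38.p14) and 121 kept.

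Values were taken as log2(intensity + 16). Probesets with a mean over 21 arrays of at least 5.18 (20.2 intensity units, the median) were kept, and a gene was the median of 3 or more, 12 in the middle gene. One limma 3.58.1 model (R 4.3.3) held 21 arrays with 1 mean per time, 14 residual and 7.08 prior degrees of freedom, a median replicate SD of 0.169, two-sided tests and Benjamini-Hochberg adjustment. Precision is limited by the number of arrays.

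Named genes were the 15 largest called changes per direction, up to 4 members per list with the smallest adjusted p, and members of the cell cycle lists; other called members of a list, and DUSP6, were named after their values were seen. Members and lists were chosen with earlier results of these data known. Same-numbered replicates were not treated as pairs in the main model. Alternatives varied the filter, pseudocount (1, 64), scaling, summary, model and arrays.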

Additional observations from a re-analysis of the deposited data

How the results depend on the processing

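Of the 245 calls, 36 higher and 38 lower ones held in every refit that tested the gene, of 17 tried. Of these refits, 6 each left out 1 array of 240 or 480 min and 11 varied other settings. Counted among the 36 and 38, the genes CHRNA9, KCNJ15, GSDMC, CCL20, LIF, H2BC14 and LINC00260 were tested in 16 refits only. Across the refits that tested them, 126 higher and 112 lower genes kept their direction. Averaging probesets gave 458 calls (238 higher, 220 lower), with 23 replication and 7 licensing members called higher, and the array index as a covariate gave 635 (289 higher, 346 lower), which held all 245. Keeping dim probesets gave 192 and a filter at the 75th percentile 295, with 1 cytokine gene called higher in each and 3 lower in the latter. The 6 arrays fitted alone gave 210, with 4 fork genes. Leaving out single arrays gave 127 to 186 calls, 57 to 116 higher and 53 to 76 lower, with 7 to 13 replication, 2 to 8 fork and, lower, 2 to 4 cytokine genes; at 120 against 0 min it gave 1561 to 3044. The causes were not tested. Quantile normalisation returned the same 245 calls. The deposited values had been equalised already, so that refit was little of a separate check. Median centring gave 303, pseudocounts of 1 and 64 gave 221 and 301, and a trended, robust prior 243. RRM2 reversed to -0.07 with dim probesets kept, -0.02 with the 75th percentile filter and -0.01 without replicate 3 at 480 min (up to 0.14 without replicate 2), and ZNF367 to -0.19 with that filter. MCM7 reversed to 0.02 with probesets averaged and 0.06 with that filter, and MCM2 to -0.01 with median centring and with the index as a covariate (-0.04 to 0.06 without single arrays).

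The replicate block gave 214 calls (118 higher, 96 lower), 210 of them shared. The deviations of same-numbered replicates from the means of their times correlated at -0.19, 0.07 and 0.25. With 3 arrays a time, these values cannot show whether the numbers pair the cultures. With 3 arrays a time, a replicate SD of 0.169 and values near the 20.2-unit floor understated, small changes of dim genes were not detectable.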

Other observations

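The genes named here were chosen after their values were seen, from the genes called outside the lists, and get no weight as groups. The first of them serve replication, repair or chromosomes and were higher at 480 min. CHEK1, the checkpoint kinase of stalled forks, measured 7.0, 6.90 and 6.92 at 240 min and 7.65, 7.32 and 7.72 at 480 min (0.62 ± 0.14, limma, adjusted p = 0.016). ATAD5, which unloads PCNA from DNA, changed by 0.64 ± 0.13, WDR76 by 0.77 ± 0.12, the kinetochore gene DSN1 by 0.76 ± 0.12 and the nuclear lamina gene LMNB1 by 0.72 ± 0.15. PARP2, RMI1, UBE2T and PSMC3IP, of DNA repair and recombination, changed by 0.60, 0.74, 0.48 and 0.66, and ZNF367 by 0.92. CHEK1, ATAD5, LMNB1, PARP2, RMI1 and UBE2T lost their calls in at least 1 refit that left out a single array. The largest adjusted p in those refits was 0.12, 0.079, 0.1, 0.11, 0.22 and 0.23 in limma. The window of ZNF367 held 2 of the E2F strings, 35 and 21 bases before the start. With a stricter filter on dim probesets ZNF367 turned to -0.19.

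Genes picked likewise from the falls follow. The desmosome genes PPL and DSG1 changed by -0.65 ± 0.11 and -0.54 ± 0.13, the tight junction gene CLDN1 by -0.71 ± 0.14, and the mucin gene MUC16 by -0.71 ± 0.14, with 87 of its 90 probesets lower. CLDN1 measured 9.92, 10.22 and 10.33 at 240 min and 9.59, 9.30 and 9.46 at 480 min, without overlap. SERPINB13, a protease inhibitor of squamous cells, fell by 0.72 on the log2 scale. A further guanylate-binding protein gene, GBP6, changed by -0.76 ± 0.16. SMAD3, the TGF-beta signal transducer, was 0.67 above its level at 0 min at 240 min and 0.08 above it at 480 min, a late change of -0.59 ± 0.09 (limma, adjusted p = 0.00092). The ETS factor genes ETV4 and ETV5, which ERK signalling induces, were higher at 480 min by 0.53 ± 0.11 and 0.67 ± 0.14. DSG1, CLDN1, GBP6, ETV4 and ETV5 lost their calls in at least 1 refit that left out a single array. The largest adjusted p in those refits was 0.19, 0.071, 0.074, 0.054 and 0.098 in limma.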
